A study of Mus musculus with 2 samples.

Results

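CG dyads with many reads on both strands were examined in the 5-hydroxymethylcytosine (5hmC) map of E14 cells, an established line of mouse embryonic stem cells. A CG dyad is a CG on one strand together with the CG that faces it on the other, so it holds 2 cytosines that can each be modified. The members were the autosomal dyads with 30 to 168 reads on each strand, both cytosines being of the deposited classes 1CG or CGCH. They numbered 67810, or 2.37% of the 2855769 autosomal dyads of these classes listed on both strands. All autosomal CG dyads with a listed strand numbered 8793027. The members were chosen by these read counts, so their own counts are a description and carry no test.

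The study's 1 group comprised 2 libraries, labelled replicates 1 and 2, of genomic DNA from E14 cells at passage 12. No allele, treatment or control sample is given in the labels. DNA was glucosylated, cut with AbaSI and sequenced from the cut ends, and the deposited table holds 1 read count per cytosine for both libraries together. No error between replicates could be computed for any value. Spread is therefore given over the 19 autosomes, which are parts of the same libraries and not independent samples.

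5hmC is made from 5-methylcytosine by the TET dioxygenases, which are active in embryonic stem cells. After DNA replication the daughter strand of a CG starts unmodified. The maintenance methyltransferase DNMT1 restores the methyl group there, and TET enzymes can then oxidise it, so the strands of a CG need not carry the same modification. AbaSI recognises glucosylated 5hmC and cuts to the 3′ side of it. It is known to cut better where a second cytosine lies on the opposite strand beyond the cut. The plus and minus cytosines of a dyad are thus read from cuts on opposite sides of it. The read counts depend on both the amount of 5hmC and the ease of cutting.

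Most members lay just above the lower bound. The strand with fewer reads had a median of 35 reads (quartiles 32 and 41) and the strand with more reads a median of 47 (quartiles 39 and 59). Over all dyads listed on both strands these medians were 8 and 16 reads. The smaller strand had 30 to 39 reads in 48048 members, or 70.9%, and 100 reads or more in 60 members. At the lower edge, 8230 members had exactly 30 reads on the smaller strand, and 8868 dyads missed the range with 29 reads there. At the upper edge, 9 members had 168 reads on the larger strand, and 4 dyads had 169 reads there with the other strand in range. In all, 514 dyads had at least 30 reads on both strands and more than 168 on 1 or both, and these are not members.

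The strands of a member carried similar numbers of reads, which the shared range favours. The median ratio of the larger to the smaller strand was 1.26 in members (quartiles 1.10 and 1.52), against 1.8 in all dyads (quartiles 1.33 and 2.75). A ratio above 2 was found in 4820 members, or 7.11%, against 40.6% of all dyads. The most uneven member had a ratio of 5.47. Neither strand dominated: the plus strand was the higher in 47.9% of members and 47.7% of all dyads, and the counts were equal in 3.69% of members and 4.65% of all dyads.

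Among dyads listed on both strands, high reads on one strand went with high reads on the other. These are the counts and bounds that chose the members, so this too is a description. The plus strand was in the range of 30 to 168 reads in 269189 dyads, and in 25.2% of these the minus strand was in range too. Where the plus strand had fewer than 30 reads, the minus strand was in range in 7.82% of dyads. A further 77668 dyads had 30 to 168 plus-strand reads and no listed minus strand, and these are outside both shares. Within members, where the range limits it, the rank correlation (Spearman) of the strands was 0.138.

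**Figure D1:**
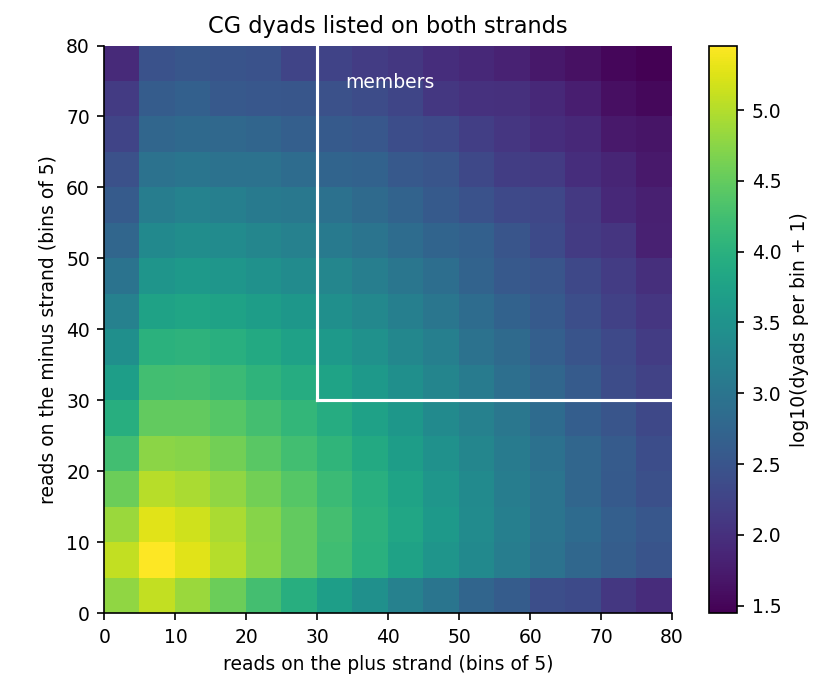
Number of CG dyads listed on both strands (colour, log10 of the number plus 1) by plus-strand reads (x axis) and minus-strand reads (y axis), in bins of 5 reads and up to 80 reads. White lines mark the lower bound of 30 reads, members lie above and to the right of both, and the dyads thin out steadily across the bound, with 8868 at 29 reads and 8230 at 30 reads on the smaller strand.

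The individual members with the most reads on the smaller strand are given with their positions in build mm9. The first was at chromosome 11, positions 3032043 to 3032044, with 151 plus-strand and 166 minus-strand reads. Next came chromosome 5, positions 33072976 to 33072977, with 155 plus-strand and 147 minus-strand reads. Another pair was again near the start of chromosome 11. At 3030894 to 3030895 the plus strand had 143 reads and the minus strand 164, and at 3050256 to 3050257 they had 140 and 158. The last of the 5, at chromosome 16 from 10975184 to 10975185, had 135 plus-strand and 156 minus-strand reads. The ranking and the upper bound leave little room for uneven strands in these 5. The other listed CG sites within 100 bp of them had means of 50.7 to 179.5 reads per site. The start of chromosome 11 held many of the highest members. In its first listed window of 100 kb, from 3000001 to 3100000, 131 of 518 dyads on both strands (25.3%) were members, and it held 12 of the 60 members with at least 100 reads on both strands. Whether repeated sequence contributes reads there was not tested. No gene annotation of mm9 was used here, so no position is assigned to a gene.

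Chromosomes 8 and 11 held 26736 members, or 39.4% (95% exact binomial interval 39.1 to 39.8, counting error only), against 17.9% of all dyads listed on both strands. On chromosome 11, 16488 dyads were members, which is 5.79% of its dyads on both strands and 138.7 per Mb. On chromosome 8 there were 10248 members, or 4.53% of dyads and 79.6 per Mb. Elsewhere the share lay between 1.46% (chromosome 13) and 2.22% (chromosome 17), with a mean of 1.74% ± 0.183 (SD, n = 17 chromosomes). Both chromosomes thus lay above every other autosome.

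Reads were also higher on these chromosomes over all dyads and at dyads listed on 1 strand only. The median over strands of all dyads on both strands, members included, was 14 reads on chromosome 11 and 13 on chromosome 8. It was 11 on each of the other 17 autosomes. Of dyads listed on 1 strand only, 5.98% on chromosome 11 and 4.99% on chromosome 8 had 30 to 168 reads, against 2.79% ± 0.237 on the other 17 (SD, n = 17 chromosomes). When the read range was multiplied by each chromosome's median relative to the median of all, chromosomes 11 and 8 fell to 2.42% and 2.40%. They were then still above the highest of the other 17, chromosome 17 with 2.22%. The medians used are whole numbers of reads and cover only dyads listed on both strands, so the scaling is coarse. The part of this rounding and of this listing in the remaining difference was not tested. Their joint share fell to 23.1% of the dyads in the scaled range. The labels do not give the copy number of chromosomes 8 and 11 in these cells, and its part in the result was not tested.

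**Figure D2:**
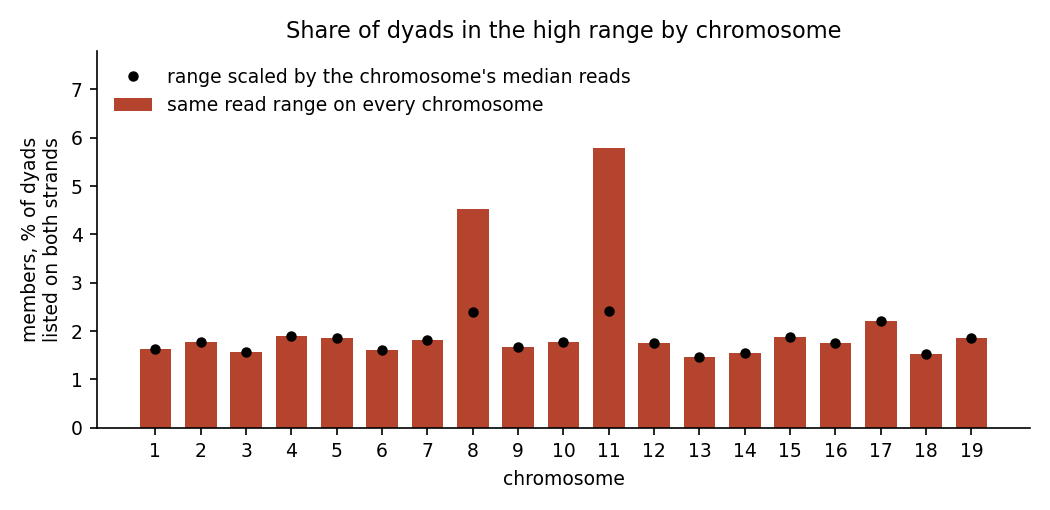
Members as a percentage of the dyads listed on both strands (y axis) on each autosome (x axis). Bars use the same range of 30 to 168 reads everywhere and points scale that range by the chromosome's median reads per strand. Bars reach 5.79% on chromosome 11 and 4.53% on chromosome 8, and points there are at 2.42% and 2.40%.

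The share of members was also followed along the chromosomes. The length from the first to the last listed dyad was cut into 10 equal stretches. On the other 17 autosomes together the share of members was between 1.51% and 1.91%, highest in the last stretch. These shares pool the dyads of the 17 chromosomes and do not show single regions. On chromosome 11 it was between 3.95% and 7.28%, again highest in the last stretch. On chromosome 8 it was between 3.23% and 5.36%, with nearly the same high value in the last stretch and from 60% to 70% of the length.

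Members were concentrated in some windows. Of 23634 autosomal windows of 100 kb with a dyad on both strands, 10762 (45.5%) held a member, with a median of 3 members in those. Of the 23891 windows with any listed CG dyad, the 5% with the most members held 44.6% of all members and 17.9% of all dyads on both strands. Among windows not at a chromosome's end, the one with the most members was chromosome 8 from 122900001 to 123000000, where 112 of 774 dyads (14.5%) were members. Chromosome 11 from 117900001 to 118000000 held 97 of 904, chromosome 11 from 4100001 to 4200000 held 92 of 623, chromosome 11 from 100200001 to 100300000 held 91 of 622, and chromosome 8 from 123000001 to 123100000 held 88 of 797. Of the 100 such windows with the most members, 97 were on chromosomes 8 and 11. The highest window elsewhere, named after its values were seen, was chromosome 17 from 30700001 to 30800000, where 66 of 503 dyads (13.1%) were members. The next window, from 30800001 to 30900000, held 65 of 564 and the one after it 51 of 520, so these 3 adjoining windows of chromosome 17 were all rich in members.

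The level of a region was then read from dyads that cannot be members, those listed on 1 strand only. In windows of chromosomes other than 8 and 11 where these had a median of 6 reads or fewer, 0.534% of dyads on both strands were members. The share was 0.858% at medians above 6 and up to 7 reads, 1.46% up to 8, 2.32% up to 9 and 3.19% above that. On chromosomes 8 and 11 the same steps gave 0.853%, 1.44%, 2.47%, 4.13% and 6.97%. On both sets of chromosomes, windows where other dyads had more reads thus held a larger share of members. At each of the 5 levels it was higher on chromosomes 8 and 11. A dyad leaves the set listed on 1 strand once its other strand is listed, and counts below 2 are not listed. These medians are thus a coarse measure of read level. Whether the 2 sets of chromosomes had the same read level within a step was not tested. The windows used held at least 50 dyads of each kind.

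Neighbouring cytosines of members also carried more reads. Averaged over the other listed CG sites within 100 bp, the median was 19 reads per site around members (quartiles 13.5 and 26), against 13 around all dyads (quartiles 9 and 18.5). Members were higher on 19 of 19 autosomes, by 4.71 ± 0.525 reads (SD, n = 19 chromosomes). Without chromosomes 8 and 11 the medians were 17 around members and 12.5 around all dyads. Where the nearest other dyad on both strands lay 24 to 100 bp away, its smaller strand had a median of 12 reads next to a member and 9 next to any dyad. Its larger strand had 24 reads next to a member and 18 next to any dyad.

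The raised level was mostly local. On chromosomes other than 8 and 11, CG sites 24 to 50 bp away had a mean of 18.9 reads around members and 15 around all dyads. From 1 to 2 kb the means were 16.3 around members and 14.7 around all dyads, and from 50 to 100 kb they were 14.5 around members and 13.9 around all dyads. With chromosomes 8 and 11 included, members stayed further above at long range, with 16.4 reads around members and 14.8 around all dyads from 50 to 100 kb. Sites above 168 reads were left out of these means. Members also occurred near members. Outside chromosomes 8 and 11, 5.19% of the dyads on both strands found 24 to 50 bp from a member were members, against 2.11% of those found at that distance from any dyad. From 1 to 2 kb the shares were 3.50% around members and 2.47% around all dyads, and from 50 to 100 kb they were 2.46% around members and 2.12% around all dyads.

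**Figure D3:**
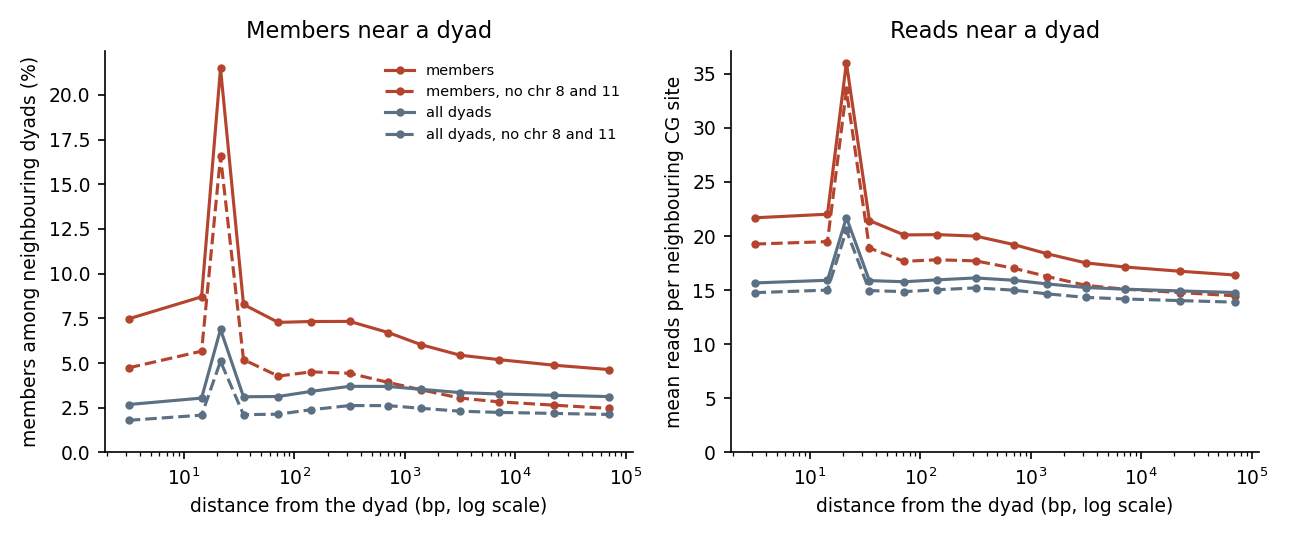
Members among the neighbouring dyads on both strands (left, %) and mean reads per neighbouring CG site (right) by distance from a member (red) or from any dyad on both strands (grey), on a log axis of distance in bp. Dashed lines leave out chromosomes 8 and 11, and the peak is the range of 20 to 23 bp, where 21.5% of the dyads around members and 6.88% around all dyads were members.

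The density of listed CG dyads around members depended on the distance. Within 100 bp, members and all dyads had a median of 2 other listed dyads each, with means of 2.08 and 2.06. The mean was lower around members on 15 of 19 autosomes and higher on 4. Very close to a member, at 1 to 10 bp, there were fewer listed dyads, with 0.741 per 100 bp around members and 0.920 around all dyads. Further out there were more, with 1.18 per 100 bp around members from 200 to 500 bp and 0.917 around all dyads. Within 1 kb the median was 21 other dyads around members and 17 around all dyads. Isolated members were rare: 12 members (0.0177%) had no other listed dyad within 1 kb, against 10261 of all dyads (0.359%). A CG without a line in the table is not shown to lack 5hmC, so these densities are of listed dyads and not of CG in the genome.

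Members had another dyad at a spacing of 20, 21 or 23 bp more often than all dyads did. When a second dyad lies to the right, the plus cytosine of the left dyad and the minus cytosine of the right dyad face each other, and the cuts of both fall between them. A listed facing cytosine of a dyad exactly 20 bp away was found for 3335 members, or 4.92%, against 1.78% of all dyads. At 23 bp it was found for 2104 members, or 3.10%, against 1.85% of all dyads. At 19 bp the shares were 2.04% of members and 2.06% of all dyads, and at 24 bp they were 1.56% of members and 1.62% of all dyads. Members and all dyads were thus close on either side of these spacings. At 22 bp no dyad of either set had such a partner, and at 21 bp 0.493% of members and 0.199% of all dyads did. Dyads with a 2CG cytosine could be partners but belong to neither set, so pairs of 2 such dyads are not counted here. At 21 bp the partner's facing cytosine was of class 2CG in 92.0% of pairs with a member and 94.9% of pairs of all dyads. At 24 bp it was so in 3.01% with a member and 6.56% of all dyads. The absence at 22 bp is thus one among dyads of the classes used, and the part of the class limit in it was not tested. Without chromosomes 8 and 11 the shares at 20 bp were 5.06% of members and 1.75% of all dyads. The ratio of the members' share to that of all dyads at 20 bp was above 1 on 19 of 19 autosomes, with a mean of 2.82 ± 0.249 (SD, n = 19 chromosomes). At 23 bp it was above 1 on 19 of 19, with a mean of 1.66 ± 0.235. The spacings were chosen after the values at all spacings from 5 to 40 bp had been seen.

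At 20 bp the facing strands carried more reads than the outer strands. At 20 bp, the members' facing strand had a median of 51 reads and their outer strand 38, both within the range that chose them. The partner's facing strand had 46 reads and its outer strand, where listed, 17. In all dyads the medians were 29 on the facing and 12 on the outer strand, and the partners had 26 and 13. The facing strand was the higher in 74.3% of pairs with a member and 85.0% of pairs of all dyads, against 47.4% with a member and 49.7% of all dyads at 19 bp. Over the 32 other spacings from 5 to 40 bp outside 20 to 23 bp, the facing strand was the higher in 43.9% to 50.6% of pairs with a member and 45.7% to 50.8% of pairs of all dyads. At 23 bp it was the higher in 51.8% of pairs with a member, just above that range, and in 61.5% of pairs of all dyads. The facing and outer medians at 23 bp were 41 and 39 reads in members and 17 and 12 in all dyads. A median of 41 against 39 reads in members was also found at 40 bp, so the strands of members differed little at 23 bp. Facing counts were exactly equal in 3.46% of the pairs at 20 bp with a member and in 4.52% of those of all dyads. At the 32 other spacings the share of equal counts was 0.416% to 1.32% with a member and 3.75% to 4.38% in all dyads. The facing cytosine of the partner was of class 2CG in 58.0% of the pairs with a member. Where it was 1CG or CGCH, the members' facing and outer medians were 52 and 38 reads, so the facing strand was the higher there too. Whether the same cut was counted at both facing cytosines was not tested, since the authors' counting rule was not stated in the sources used here.

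**Figure D4:**
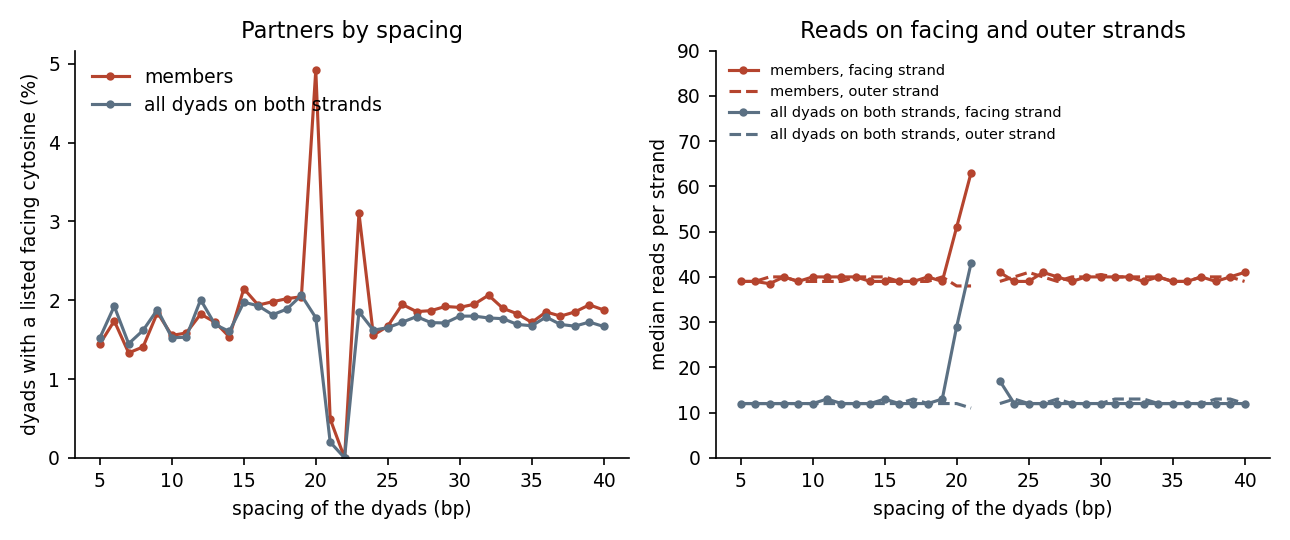
Left, percentage of members (red) and of all dyads on both strands (grey) with a listed facing cytosine, by spacing of the dyads from 5 to 40 bp, and right, their median reads on the facing strand (solid) and the outer strand (dashed). Members reach 4.92% at 20 bp and 3.10% at 23 bp, and facing medians at 20 bp are 51 reads in members and 29 in all dyads.

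Dyads with a partner at these spacings were members more often. Of the dyads with a facing cytosine at 20 bp, 6.57% were members (95% exact interval 6.35 to 6.79). The share was 5.87% (5.27 to 6.51) at 21 bp and 3.98% (3.81 to 4.15) at 23 bp. At 19 bp it was 2.35% (2.23 to 2.48) and at 24 bp 2.28% (2.15 to 2.42), close to the 2.37% of the pool. In all, 5689 members (8.39%) had a facing cytosine at a spacing of 20 to 23 bp, against 3.81% of all dyads. At 20 to 23 bp the share was higher still in a set called same-sum dyads here. These were 130509 dyads whose strands summed to 60 to 336 reads but which were not members. Of these, 129256 had 1 strand in the range and 1253 had neither. A facing cytosine at such a spacing was found for 13.6% of the same-sum dyads. Among the 155642 dyads listed on 1 strand only with 30 to 168 reads, 12.3% had a listed cytosine facing their listed strand at such a spacing.

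Class codes differed as well. Both cytosines were CGCH in 29326 members, or 43.2% (95% exact interval 42.9 to 43.6), against 34.9% of all dyads. Both were 1CG in 11.3% of members and 16.2% of all dyads, and the classes were mixed in 45.4% of members and 48.9% of all dyads. The share with CGCH on both strands was higher in members on 19 of 19 autosomes, by 8.70 ± 0.810 percentage points (SD, n = 19 chromosomes). Seen the other way, 2.95% of dyads with CGCH on both strands were members, 2.20% of mixed dyads and 1.66% of dyads with 1CG on both strands. What the codes stand for was not stated in the sources used here. In mixed dyads the reads could be compared between classes within the same CG. Over all 1397815 mixed dyads the CGCH cytosine had a median of 12 reads and the 1CG cytosine 10. The CGCH cytosine was the higher in 746889 (53.4%) and the 1CG cytosine in 585559, and the counts were equal in the rest. In the 30816 mixed members, where the range limits the difference, the medians were 41 reads at CGCH and 39 at 1CG. CGCH was the higher in 15933 of them (51.7%) and 1CG in 13756.

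CH cytosines, those followed by A, C or T, were listed more often near members. At least 1 lay within 100 bp of 8431 members, or 12.4% (95% exact interval 12.2 to 12.7), against 8.26% of all dyads. Members were higher on 19 of 19 autosomes, by 2.93 ± 0.979 percentage points (SD, n = 19 chromosomes). Without chromosomes 8 and 11 the shares were 10.2% of members and 7.47% of all dyads. The part of the regional reads in this difference was not tested.

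The members were also set beside the 130509 same-sum dyads. Neighbouring CG sites within 100 bp had a median of 19 reads around members and 18.3 around the same-sum dyads. A CH site lay within 100 bp of 12.4% of members and 11.5% of same-sum dyads, and both cytosines were CGCH in 43.2% of members and 40.3% of same-sum dyads. Chromosomes 8 and 11 held 39.4% of members and 32.5% of same-sum dyads. The median sum was 84 reads in members and 68 in same-sum dyads, so the sets were not matched on reads. On all of these measures, the same-sum dyads lay closer to the members than the pool did. The dyads listed on 1 strand only with 30 to 168 reads were nearer to the pool, with 15.8 reads at neighbouring sites, a CH site for 9.75% and 21.8% on chromosomes 8 and 11.

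Members formed small clusters. Another member lay within 1 kb of 29906 members, or 44.1% (95% exact interval 43.7 to 44.5), against 18.2% of all dyads with a member within 1 kb. Without chromosomes 8 and 11 these shares were 31% of members and 14% of all dyads. Joining members with gaps of at most 1 kb gave 48957 clusters. Of these, 37904 were single members, 7163 held 2 members, 3018 held 3 or 4, and 872 held 5 or more. Chromosomes 8 and 11 had 771 of the 872 clusters with 5 or more members, or 88.4%.

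The cluster with the most members lay at the start of chromosome 11, from 3090681 to 3095648. It held 25 members among 75 dyads on both strands, and their strands had 31 to 168 reads. The second, on chromosome 11 from 116693844 to 116699049, held 18 members among 48 dyads, with 31 to 93 reads per strand. The next was on chromosome 8 from 123089032 to 123095853, within one of the windows named above, and held 18 members among 87 dyads, with 32 to 106 reads. Another, on chromosome 11 from 95489925 to 95497732, held 18 among 68 with 31 to 119 reads, and the last, on chromosome 11 from 97814832 to 97819603, held 17 among 56 with 32 to 157 reads. In the last 4 of these clusters every dyad that was not a member had a strand below the range, and in the cluster starting at 95489925 1 of them also had a strand above it. The first cluster differed, since 40 of its 50 other dyads had a strand above 168 reads and 15 had a strand below 30.

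The last of these clusters held a clear example of the 20 bp spacing. The dyads at 97816076 to 97816077 and at 97816096 to 97816097 are 20 bp apart. The facing cytosines had 144 reads on the plus strand of the left dyad and 146 on the minus strand of the right one. The outer cytosines of the same dyads had 38 and 36 reads. In the second cluster, the dyads at 116694130 to 116694131 and at 116694153 to 116694154 are 23 bp apart, with 93 and 90 reads on the facing strands and 38 and 39 on the outer strands. Another pair, in the first cluster at 3095624 to 3095625 and 3095647 to 3095648, was 23 bp apart and did not follow this order. Its facing strands had 48 and 80 reads and its outer strands 160 and 74.

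**Figure D5:**
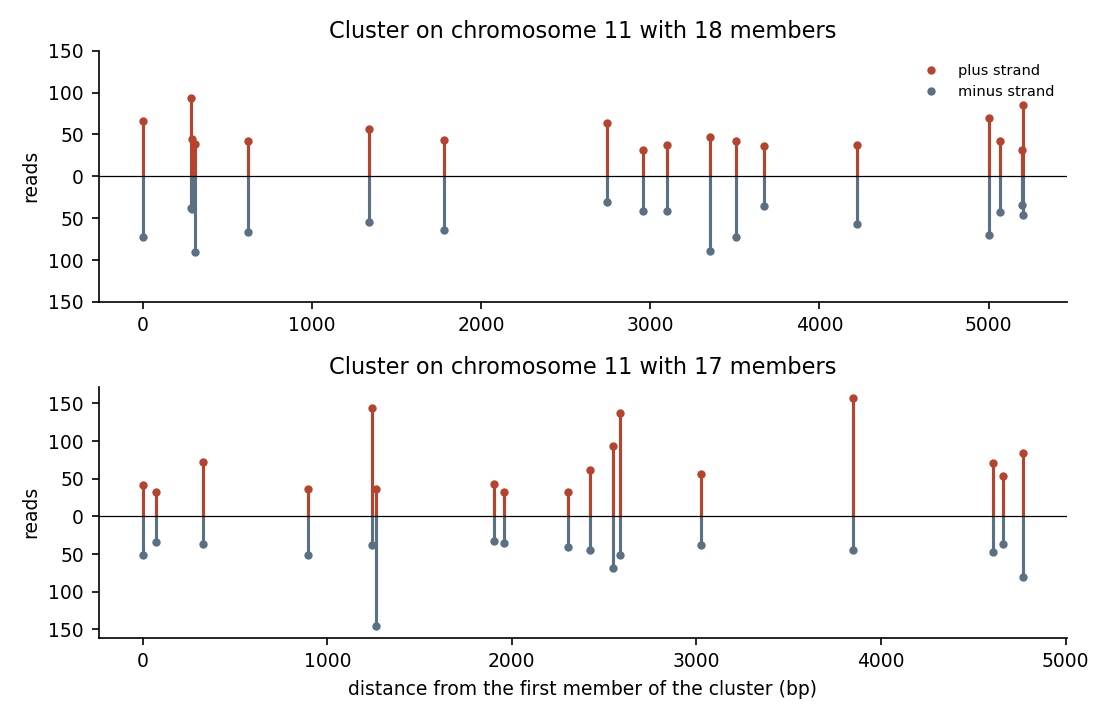
Reads on the plus strand (up, red) and the minus strand (down, grey) of each member in the chromosome 11 clusters starting at 116693844 (top) and 97814832 (bottom), by distance from the first member in bp. The pair of high facing strands with 144 and 146 reads in the lower panel belongs to dyads 20 bp apart.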

How the data were processed

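The deposited table gives 1 unscaled read count for each cytosine, a whole number, with both libraries of E14 DNA in 1 column. The submitters' processing notes name CASAVA 1.8.2, Bowtie and build mm9. Per the labels' protocols, the libraries were amplified for 16 PCR cycles. The aligner's version, the counting rule, the listing minimum, the handling of PCR copies and the way the libraries were joined were not stated in the sources used here. The lowest listed count was 2. The table held 176006227 reads on 13025343 sites.

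A plus-strand CG cytosine and a minus-strand one 1 base to its right formed a dyad, and positions were made 1-based. Neighbours were listed CG dyads of any class. Binomial intervals were exact (Clopper-Pearson, 95%) and cover counting error only. They count dyads as independent, although members lay near members and shares differed between chromosomes, so they can be too narrow. The sorting of recomputed shares into stayed and moved rests on them. PCR copies are not independent molecules either. No test was made, because 1 pooled count column leaves no replicates. Analyses used Python 3.11.15, numpy 2.4.6, pandas 2.3.3, scipy 1.17.1 and matplotlib 3.10.9, and the functions were tested on simulated sites.

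The members and measures were chosen with earlier results of these data known. Named regions were the 5 members with the most reads on the smaller strand, and the 5 clusters and 5 windows with the most members. Analyses of sequence and gene features were not run, since no mm9 genome or annotation was used here.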

Additional observations from a re-analysis of the deposited data

Results flagged for a closer look

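Some dyads that the rule leaves out fell in the same range of reads on both strands. On the X chromosome 123 of 20898 dyads of classes 1CG and CGCH did so, or 0.589% (95% exact interval 0.489 to 0.702), which is below the 1.46% of the lowest autosome. On mitochondrial DNA it was 11 of 171 dyads, or 6.43% (3.25 to 11.2). Among autosomal dyads with a 2CG cytosine on 1 or both strands, 17220 of 435970 were in range, or 3.95% (3.89 to 4.01). On the Y chromosome 2 of 11 dyads of classes 1CG and CGCH were in range, or 18.2% (2.28 to 51.8), too few to read. The read range was not scaled for any of these sets. The part of the copy number of X, Y and mitochondrial DNA in their shares was not tested. The labels give no control sample to set these counts against, so a background was not estimated.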

How the results depend on the processing

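Of 74 values recomputed for 9 results, 35 stayed within the counting interval (shares), the SD over autosomes (medians) or 1.5 times (number of members), and 39 moved. Unless the setting itself changes the set of dyads or the distance, the cause was not tested. With a lower bound of 20 reads there were 258488 members, of which 30.5% were on chromosomes 8 and 11, 41.1% had CGCH on both strands, 68.6% had another member within 1 kb and 10.8% a CH site within 100 bp. Their median strand ratio was 1.32 and neighbouring sites had 17 reads. With a lower bound of 50 there were 6439 members, with shares of 58.5%, 45.6%, 17.2% and 16.9% in the same order, a ratio of 1.19 and 22.25 neighbour reads. With the class 2CG allowed, these shares were 38.4%, 34.5%, 49.8% and 12.0%, the ratio 1.28 and neighbour reads 20.7. A dyad with a 2CG cytosine cannot have CGCH on both strands, so the setting itself lowers the share of 34.5%. The share of all dyads was not recomputed with 2CG allowed. Without chromosomes 8 and 11 there were 41074 members, with CGCH on both strands in 43.8%, another member within 1 kb in 31.0%, a CH site in 10.2%, a ratio of 1.24 and 17 neighbour reads. With the range scaled per chromosome, 23.1% were on chromosomes 8 and 11, 43.8% had CGCH on both strands, 34.7% another member and 11.9% a CH site. No upper bound moved the CH share to 12.9% and no other result. Within 500 bp there were 11 other dyads and a CH site for 41.2%, and within 10 kb another member for 82.3%. Chosen after seeing the data, leaving out members with a facing cytosine at 20 to 23 bp moved the share with another member within 1 kb to 41.8% and no other result. Leaving out the first 100 kb window of each chromosome moved nothing. The share with a facing cytosine at 20 bp, also tried after seeing the data, was 3.82% and 6.03% at lower bounds of 20 and 50, 8.69% with 2CG and 5.15% with the scaled range. No paired analysis was possible because the table pools both libraries in 1 column, and for the same reason no library could be left out. Depth per library is unknown, and cytosines with fewer than 2 reads are not listed.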
